A study of Mus musculus with 8 samples.

Results

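The core circadian clock genes were followed in hippocampi of the BTBR and B6 mouse strains. They were taken as 10 genes, Arntl, Clock, Per1, Per2, Per3, Cry1, Cry2, Nr1d1, Nr1d2 and Dbp, and every non-control probe that carried one of these gene names was used. This gave 18 of the 41174 non-control probes of the array and 10 of its 27373 gene names. Total RNA from the whole hippocampus of 4 BTBR T+ Itpr3tf/J mice (BTBR) and 4 wild type C57BL/6J mice (B6) had been labeled with Cy3 and measured on one-color Agilent arrays, with 1 mouse per array. All 8 mice were labeled male, 5 months old and free of drug treatment. BTBR is an inbred strain used as a model of autism spectrum disorder, and the fiber tracts that join the brain hemispheres do not form normally in it. One label field also gives C57BL/6J as the background of the BTBR mice, which were assigned to BTBR by their titles, source names and genotype. The mice were kept in a light/dark cycle, and the time of day of dissection is not given in the sources used here.

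In mammals the clock is a feedback loop of transcription. CLOCK and BMAL1, the protein of Arntl, bind E-box elements and switch on the Per and Cry genes, whose proteins return to the nucleus and repress CLOCK and BMAL1. The nuclear receptors REV-ERB alpha and REV-ERB beta, encoded by Nr1d1 and Nr1d2, repress Arntl through ROR elements, and DBP is an output factor that activates genes through D-box elements, which occur in Per promoters. The loop runs in the suprachiasmatic nucleus, the central pacemaker, and also in other brain regions such as the hippocampus, where many of its transcripts rise and fall over the day.

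Per3 was the clock gene that differed between the strains, and its sequences are therefore shown first. The array holds a single Per3 probe of 60 bases, A_51_P258493, designed on NM_011067 and placed on the minus strand of mm9 at chr4:150379256-150379315. Its middle 30 bases, at chr4:150379271-150379300, read as follows.

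Per3 probe: atctgtcagctagccaggacttactccttg

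The promoter sequences come from RefSeq (GRCm38.p6), as windows from 250 bases before to 50 bases after an annotated start site, and 9 of the 10 genes, all but Per2, matched 13 windows. Per2 was therefore not searched for motifs. The stretch of the Per3 window that lies before the outer edge of the annotated gene spans 208 bases of the minus strand at chr4:151044708-151044915, and the capitals mark the letters TTATGTAA of the D-box, the element bound by DBP.

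Per3 promoter: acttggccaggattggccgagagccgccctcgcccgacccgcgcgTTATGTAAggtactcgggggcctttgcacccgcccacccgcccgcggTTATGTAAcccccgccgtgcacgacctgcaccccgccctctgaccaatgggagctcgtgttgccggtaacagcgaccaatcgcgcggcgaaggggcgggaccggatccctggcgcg

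For comparison, 30 bases are given around the elements found in 3 other clock genes. The capitals mark the E-box CACGTG and its variant CACGTT, here on the opposite strand, in Cry1 (minus strand, chr10:85185107-85185136), the E-box in Per1 (plus strand, chr11:69098771-69098800) and the ROR element TAGGTCA in Arntl (plus strand, chr7:113207530-113207559).

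Cry1: agaAACGTGaggtgccggtggtCACGTGgg
Per1: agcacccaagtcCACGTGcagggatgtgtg
Arntl: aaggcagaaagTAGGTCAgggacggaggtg

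All motifs were searched on both strands. The D-box letters were present in 0.938% of the 32851 promoter windows of the RefSeq table, and at least 2 copies, as in Per3, were present in 7 windows (0.0213%). The copies in Per3 began at positions -205 and -158 relative to the start site. CACGTG was present in 7.15% of all windows and, among the clock genes, in Per1 and Cry1. CACGTT was present in 4.68% and in Cry1, Cry2 and Nr1d1. TAGGTCA was present in 2.61% and in 1 of the Arntl windows. TGGGTCA, a second form of the ROR element, was present in 3.98% of all windows and the cyclic AMP response element TGACGTCA in 1.79%, and neither was found in a clock gene window. These are matches of letters within the windows, and binding was not measured.

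The arrays sat on 2 slides. Replicates 1 and 2 of each strain shared slide 1, and replicates 3 and 4 shared slide 2. Between 56.8% and 71.9% of the probes were well above background in B6 and between 61.9% and 71.5% in BTBR, no spot was saturated, and arrays of the same strain correlated at 0.982 to 0.996 over the tested probes. Marker levels varied among the arrays. The mean log2 level of 12 markers of hippocampal neurons was 11.69 in BTBR replicate 1 and 11.49 in BTBR replicate 2, against 12.68 to 13.48 in B6 and 13.26 and 13.05 in BTBR replicates 3 and 4. The 11 tested thalamic markers, out of 12 listed, were at 13.08 in BTBR replicate 1 and 11.11 in BTBR replicate 2 and at 10.37 to 10.69 in the other 6 arrays. The 7 tested striatal markers, out of 8 listed, were at 13.04 in BTBR replicate 2, 11.54 in B6 replicate 2 and 11.01 in BTBR replicate 1, and at 9.48 to 9.77 in the other arrays. Choroid plexus markers (11 of 12 tested) were at 12.67 and 12.57 in BTBR replicates 1 and 2 and at 10.63 to 11.87 elsewhere. Markers of the suprachiasmatic nucleus and hypothalamus (8 of 11 tested, with Six6, Nms and Crh among those not tested) were at 8.86 to 9.49 in B6 and 8.90 to 9.51 in BTBR. Blood markers (3 of 6 tested) were at 13.48 in BTBR replicate 3 and at 11.37 to 12.13 in the other 7 arrays. Pituitary markers (7 of 9 tested) were at 8.55, 8.50, 9.63 and 10.34 in B6 and at 9.37, 9.52, 10.28 and 10.55 in BTBR, so that in each strain their mean was higher on slide 2. Meningeal markers (12 of 12 tested) were at 10.25 to 11.28 in B6 and 10.59 to 11.63 in BTBR. No marker of the first 5 lists passed the test between strains. Among the meningeal, pituitary and blood markers 1 was called at its brightest probe, the meningeal Slpi, which was higher in BTBR by 2.03 and was well above background in 3 of the 4 B6 arrays. The dimmer probe of another meningeal marker, Igf2, was also called, at 1.24 (adjusted p = 0.033 in limma). The strain differences the results turn on are therefore also given without BTBR replicates 1 and 2, and the part of tissue composition in them was not tested. The BTBR arrays left in that setting are both on slide 2, while the B6 arrays are on both slides. Strain and slide are therefore partly mixed in these values. In a tissue sample, fewer cells of a type and less RNA per cell cannot be told apart.

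**Figure D1:**
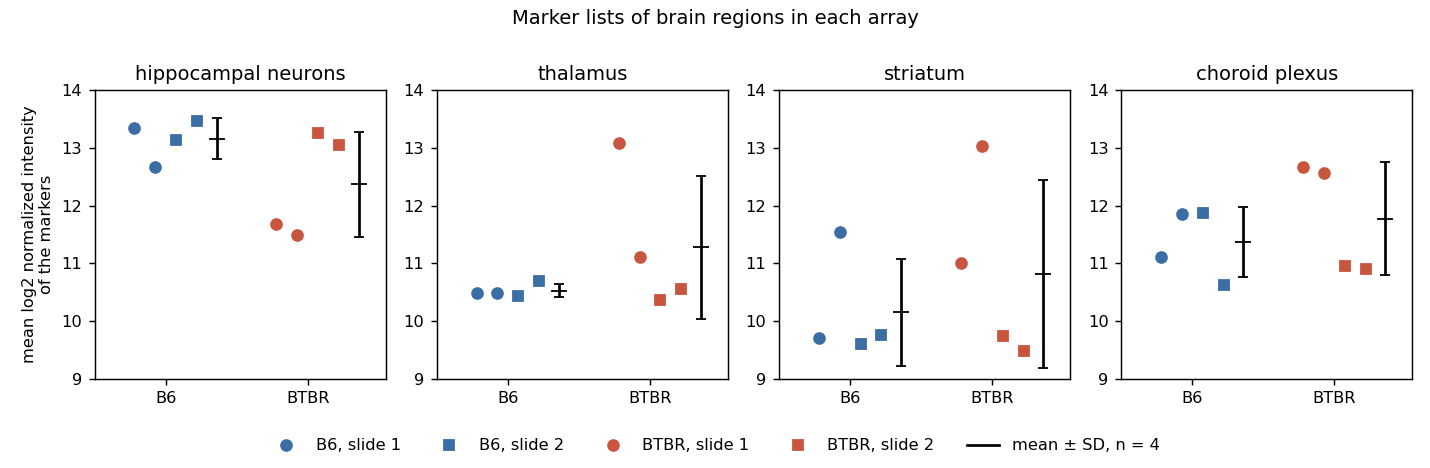
Mean log2 normalized intensity of the marker genes of 4 brain regions in each array (vertical axis), by strain (horizontal axis), with circles for slide 1, squares for slide 2 and bars for the mean ± SD of 4 arrays. BTBR replicates 1 and 2, the BTBR circles, lie lowest for hippocampal neurons at 11.69 and 11.49 and highest for thalamus at 13.08 and 11.11.

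Intensities were background subtracted, raised by an offset of 50, put on a log2 scale and quantile normalized, so that a difference of 1 is a doubling of intensity plus offset and the change of dim probes is understated. Of the 18 clock probes, 17 were bright enough to be tested. The exception was the Cry1 probe A_52_P420500, which was not well above background on any of the 8 arrays. Strains were compared with limma, p-values were adjusted (Benjamini-Hochberg) over all 27982 tested probes, and an adjusted p under 0.05 was called. Over the whole array 7.61% of the probes were called in either direction, 3.31% were higher in BTBR and 4.30% were lower. Of the 17 clock probes, 1 was called, the Per3 probe, and it was higher in BTBR. Among all gene names, each taken at its brightest probe, 7.82% were called and 3.49% were called higher in BTBR, and among the 10 clock genes 1 was. The share of called clock genes was thus near that of the array.

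**Figure D2:**
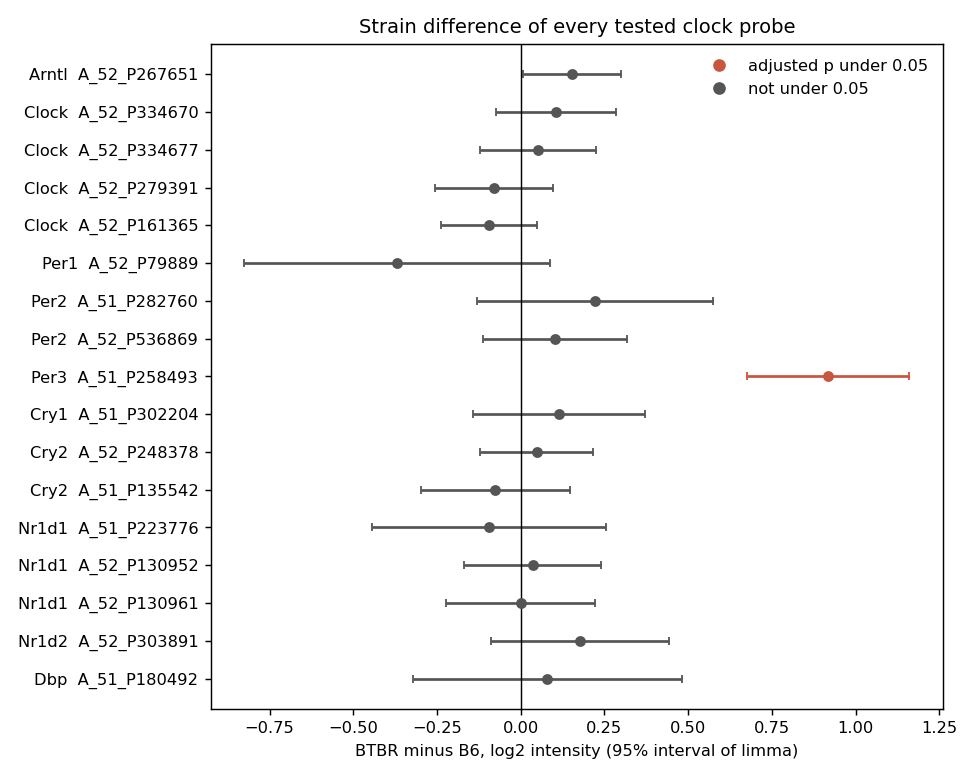
Difference of BTBR minus B6 in log2 intensity (horizontal axis) for the 17 tested clock probes (vertical axis, gene and probe), with the 95% interval of limma. The Per3 probe lies at 0.92 with an interval of 0.67 to 1.16, and each of the other 16 intervals lies below that of Per3, with the Arntl interval starting just above 0.

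Per3 encodes a period protein that is thought to be less essential for rhythm than PER1 and PER2. Its log2 intensities were 9.13, 8.98, 9.15 and 9.11 in the 4 B6 mice. In the 4 BTBR mice they were 9.91, 9.86, 10.33 and 9.95. The lowest BTBR array lay 0.70 above the highest B6 array, and the strains did not overlap. Before any normalization the mean spot intensity was 521.5 to 594.8 in B6 and 883.5 to 1137.3 in BTBR, so that the separation was present in the scanner values too. The means were 9.09 ± 0.08 in B6 and 10.01 ± 0.22 in BTBR (SD, n = 4). The difference was 0.92 with an SE of 0.11 (95% interval 0.67 to 1.16), which is 1.89-fold (1.60 to 2.24), with an adjusted p of 0.00075 in limma. The exact permutation test of the 8 arrays gave p = 0.0286 (two-sided), the smallest value that 4 arrays against 4 allow. In size, the difference ranked 561 among the 27982 tested probes. The rank product, the test the study used, also called Per3, with a percentage of false prediction (pfp) of 0.0052, and it called 3.94% of all probes.

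The difference in Per3 was present on both slides, at 0.83 on slide 1 and 1.01 on slide 2. Without BTBR replicates 1 and 2 it was 1.04 (adjusted p = 0.0025 in limma). BTBR replicate 3, the array highest in Per3, was also the highest in blood markers, and without it the difference was 0.81 (adjusted p = 0.00022 in limma). The part of tissue composition in the difference was not tested. Per3 was called under each of the 24 other ways of handling the data, with differences from 0.77 in the deposited log2 matrix to 1.31 with the processed signal of the scanner software.

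**Figure D3:**
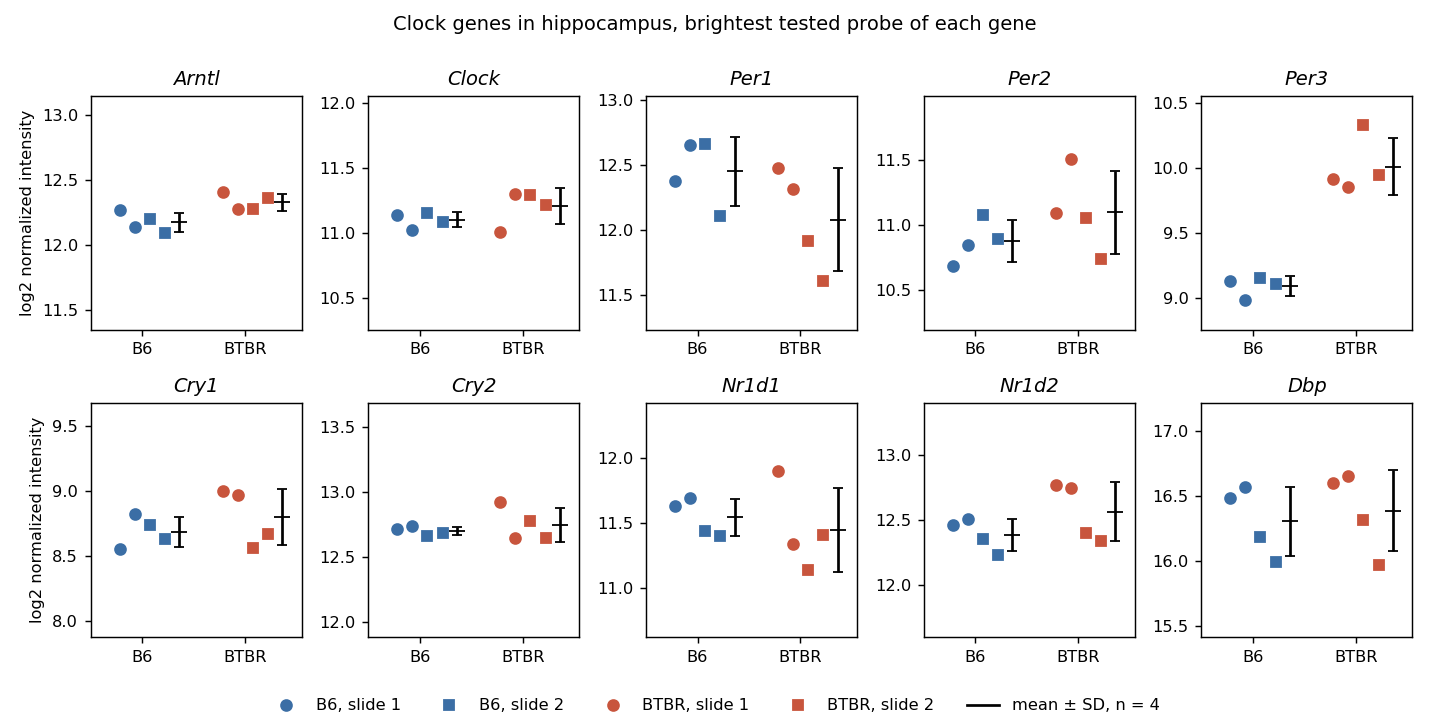
Log2 normalized intensity of the brightest tested probe of each clock gene (vertical axis, the same span in every panel) in B6 and BTBR, with circles for slide 1, squares for slide 2 and bars for the mean ± SD of 4 arrays. Per3 is the panel in which all BTBR arrays (9.86 to 10.33) lie far from all B6 arrays (8.98 to 9.15), while the Dbp panel shows the circles of both strains above the squares.

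The other period genes did not pass the test. Per1, a period gene that also responds quickly to light and to neuronal activity, was at 12.38, 12.65, 12.66 and 12.11 in B6 and at 12.48, 12.32, 11.91 and 11.61 in BTBR (probe A_52_P79889, NM_011065, mm9 chr11:68922878-68922937). The BTBR arrays of slide 2 lay below every B6 array, and those of slide 1 lay within the range of B6. The difference was -0.37 with an interval from -0.83 to 0.09 (adjusted p = 0.39 in limma), so that a level down to 0.56 times that of B6 remained within the interval. It was -0.12 on slide 1 and -0.62 on slide 2, and -0.69 without BTBR replicates 1 and 2, where the adjusted p was 0.078.

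Per2, a period gene needed for a stable rhythm, had 2 probes. The brighter one (A_51_P282760, NM_011066, mm9 chr1:93313046-93313105) was at 10.68, 10.85, 11.08 and 10.90 in B6 and at 11.09, 11.51, 11.06 and 10.74 in BTBR. The BTBR arrays of slide 1 lay above every B6 array, while the BTBR arrays of slide 2 lay within the range of B6. The difference was 0.22 over all arrays (adjusted p = 0.52 in limma), 0.53 on slide 1, -0.09 on slide 2 and 0.02 without BTBR replicates 1 and 2. The difference between the slides had a p of 0.036 and an adjusted p of 0.49, and over the whole array 9.93% of probes reached an unadjusted p under 0.05 in that test, with 0 of 27982 called by limma. The dimmer probe (A_52_P536869, mm9 chr1:93336538-93336597) differed by 0.10 (adjusted p = 0.66 in limma).

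The cryptochromes, the partners of the period proteins in repression, differed little. Cry1 (probe A_51_P302204, NM_007771, mm9 chr10:84606495-84606554) was at 8.55, 8.82, 8.74 and 8.63 in B6 and at 9.00, 8.97, 8.56 and 8.67 in BTBR. Its BTBR arrays split by slide, with the slide 1 arrays above all B6 arrays, and the difference was 0.11 (interval -0.14 to 0.37, adjusted p = 0.68 in limma). Cry2 was measured with 2 probes, at differences of 0.05 (A_52_P248378) and -0.08 (A_51_P135542), which had opposite signs and adjusted p-values of 0.81 and 0.76 in limma. Without BTBR replicates 1 and 2 they were at 0.01 and -0.02.

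Arntl, which encodes BMAL1, was at 12.26, 12.14, 12.20 and 12.09 in B6 and at 12.40, 12.27, 12.27 and 12.36 in BTBR (probe A_52_P267651, NM_007489, mm9 chr7:120456978-120457037). All 4 BTBR arrays lay above all 4 B6 arrays, by a narrow margin. The difference was 0.15 with an SE of 0.07 (interval 0.01 to 0.30). It had an unadjusted p of 0.044 and an adjusted p of 0.25 in limma, and the exact permutation p was 0.0286. Arntl and Per3 were the 2 clock probes whose strains did not overlap and the 2 with an unadjusted p under 0.05, against 14.2% and 18.5% of all tested probes. The Arntl difference was not called. It was 0.14 without BTBR replicates 1 and 2, 0.14 and 0.17 within the slides, and 0.092 (adjusted p = 0.65) with median centring of the arrays in place of quantile normalization.

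Clock, the partner of BMAL1, had 4 probes. From the brightest to the dimmest they differed by 0.10, -0.08, 0.05 and -0.09, with adjusted p-values from 0.50 to 0.79 in limma. The brightest (A_52_P334670, NM_007715, mm9 chr5:76641377-76641436) was at 11.02 to 11.15 in B6 and 11.01 to 11.30 in BTBR, and the strains overlapped in all 4 probes. The widest of the 4 intervals reached from -0.08 to 0.28.

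The nuclear receptors that repress Arntl did not pass the test either. Nr1d1 had 3 probes, at differences of -0.09, 0.04 and 0.00. The brightest (A_51_P223776, NM_145434, spanning 503 bases at mm9 chr11:98630526-98631028) was at 11.63, 11.69, 11.44 and 11.40 in B6 and at 11.90, 11.33, 11.14 and 11.41 in BTBR, where replicate 1 lay above and replicates 2 and 3 lay below every B6 array. The adjusted p of the 3 probes was 0.81 to 0.999 in limma. Nr1d2 (probe A_52_P303891, NM_011584, mm9 chr14:19037253-19037312) was at 12.46, 12.50, 12.35 and 12.23 in B6. In BTBR it was at 12.76, 12.75, 12.40 and 12.34. The BTBR arrays of slide 1 were the highest and the B6 array of replicate 4 the lowest. The difference of 0.18 (interval -0.09 to 0.44, adjusted p = 0.49 in limma) came to -0.02 without BTBR replicates 1 and 2, where strain and slide are partly mixed. Within the slides it was 0.28 on slide 1 and 0.08 on slide 2.

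Dbp, the output factor, was at 16.48, 16.57, 16.19 and 15.99 in B6 and at 16.60, 16.66, 16.32 and 15.97 in BTBR (probe A_51_P180492, NM_016974, mm9 chr7:52965265-52965324). The strains overlapped, and in each strain the slide 1 arrays were higher than the slide 2 arrays. The strain difference was 0.08 (interval -0.32 to 0.48, adjusted p = 0.87 in limma). It was 0.10 within slide 1 and 0.06 within slide 2. Without BTBR replicates 1 and 2, where strain and slide are partly mixed, it was -0.16.

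Over the 17 tested clock probes, 12 differences were above 0 and 5 below. Among the 16 probes that were not called, the adjusted p ranged from 0.25 to 0.999 and the largest absolute difference was 0.37. The interval reached a change of 1.5-fold or more for 1 of them, Per1. The median difference over the brightest probes of the 10 genes was 0.11, beside 0.01 for all 18399 gene names, and the median absolute difference of all gene names was 0.11.

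On the array, 10 other tested probes lay within 500 kb of the Per3 probe and 1 of them was called, beside 7.61% of all probes. It was the probe of Slc45a1, which fell by 0.49 (adjusted p = 0.0025 in limma) and was at -0.54 without BTBR replicates 1 and 2. Vamp3, the nearest gene on one side, differed by -0.02 and 0.01 in its 2 probes.

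The spread among mice of one strain differed from clock gene to clock gene. The pooled SD within strains was 0.33 for Per1 and 0.29 for Dbp, higher than in 91.7% and 88.8% of all tested probes, whose median was 0.13. Per2 and Nr1d1 followed at 0.25 each in their brightest probes. At the other end lay Arntl at 0.07 and the Clock probe A_52_P161365 at 0.07. Dbp was lower on slide 2 than on slide 1 by 0.44 in B6 and by 0.48 in BTBR. Of the 7 tested pituitary markers, slide 2 minus slide 1 was 3.64 for Gh (growth hormone), 2.91 for Prl (prolactin), 2.11 for Cga (a subunit of pituitary hormones) and 0.34 for Pomc, and it was -0.28 for Lhb, -0.21 for Tshb and -0.01 for Fshb. None was called between the slides. Their part in the slide difference of Dbp was not tested. The slide term, fitted beside strain in limma, was -0.46 for Dbp (SE 0.09, adjusted p = 0.26) and -0.29 for Nr1d2 (SE 0.07, adjusted p = 0.26), with unadjusted values of 0.00087 and 0.0027. It was -0.38 for Per1 and -0.29 for the brightest Nr1d1 probe, with adjusted p-values of 0.34 and 0.35 and unadjusted values of 0.044 and 0.046 in limma. Limma called 0 of all 27982 probes between the slides, so that these 4 clock probes did not pass the test. The slides were scanned separately, and the mice of each slide, their dissection and the slide itself cannot be told apart.

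**Figure D4:**
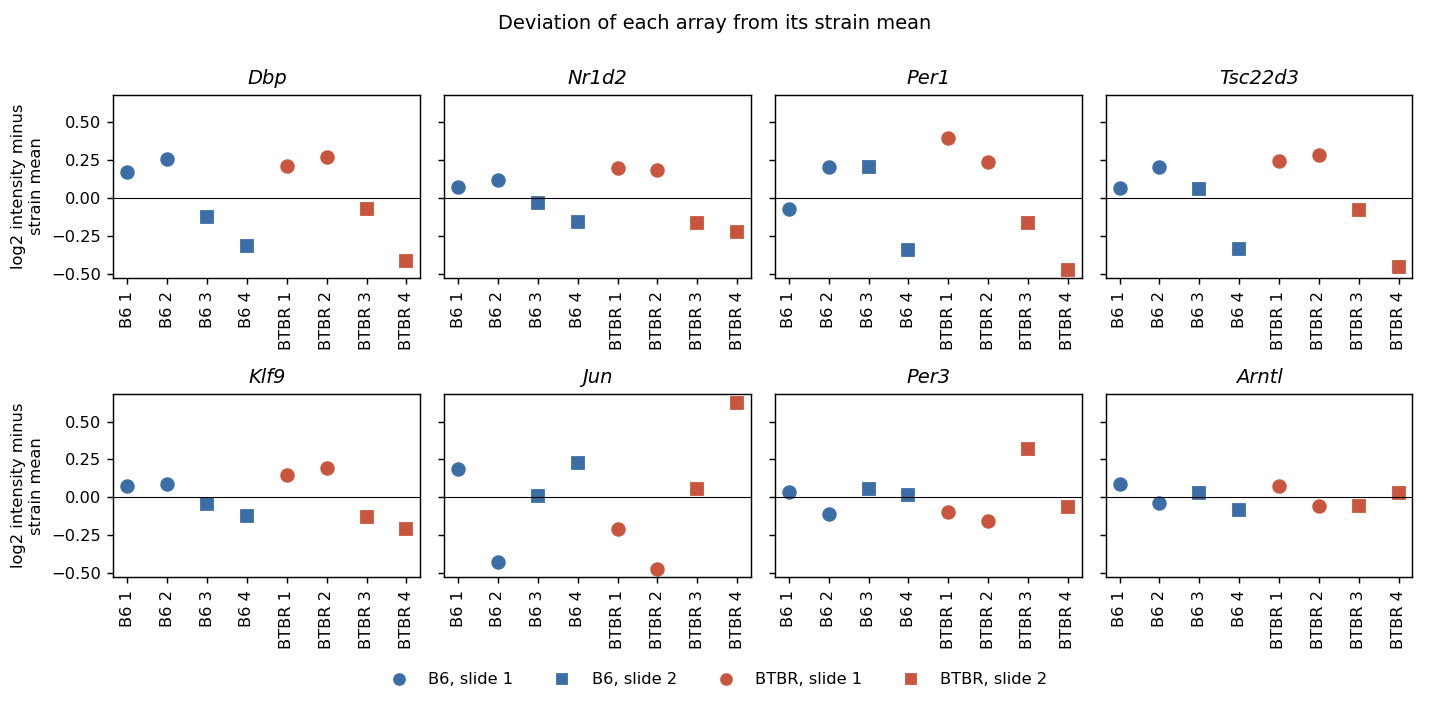
Log2 intensity minus the mean of the strain (vertical axis) in each of the 8 arrays (horizontal axis, strain and replicate), for 5 clock genes and for Tsc22d3, Klf9 and Jun, with circles for slide 1 and squares for slide 2. Dbp, Nr1d2 and Klf9 are above 0 in all 4 slide 1 arrays and below 0 in all 4 slide 2 arrays, and Arntl stays close to 0 throughout.

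Correlations among the clock genes were computed over the 8 arrays with strain means removed, at the brightest probe of each gene, and compared with all 576 permutations of the arrays within strains, so that the smallest exact p was 0.0017. These permutations exchange arrays of different slides, so that the p-values do not hold the slide fixed. With arrays exchanged only within strain and slide, 16 permutations remain and the smallest two-sided p is 0.125, and no such p is given. Among the 45 pairs the median r was 0.27, 28 were positive, 5 had an unadjusted p under 0.05, and 0 were called after Benjamini-Hochberg adjustment. The closest pair was Nr1d2 and Dbp (r = 0.93, rho = 0.86, exact p = 0.0035 for r and 0.0174 for rho, adjusted p = 0.16 and 0.59). Its r was 0.92 without the 2 arrays farthest from the median of Nr1d2 and 0.80 with the slide means removed as well. It was 0.95 in the 6 arrays left without BTBR replicates 1 and 2, 0.79 with median centring of the arrays and 0.77 with the processed signal. For each pair, the 2 farthest arrays were those of the gene named first. An r with slide means removed rests only on the difference between the 2 arrays of each strain and slide. Per1 moved with both, at r = 0.89 with Nr1d2 (rho = 0.90, exact p = 0.035 and 0.052, adjusted p = 0.34 and 0.59) and r = 0.82 with Dbp (rho = 0.76, exact p = 0.038 and 0.071, adjusted p = 0.34 and 0.64). The Per1 and Dbp value came to 0.42 without the 2 arrays farthest in Per1, so that it rested in part on them. It was 0.73 with median centring and 0.62 with the processed signal. The Per1 and Nr1d2 value was 0.76 without the same arrays, 0.88 with median centring and 0.87 with the processed signal. With slide means removed, Per1 was at 0.99 with Nr1d2 and 0.79 with Dbp. The values of Per1 were 0.69 with Nr1d2 and 0.67 with Dbp without BTBR replicates 1 and 2.

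Negative values were found in other pairs. Clock and Nr1d1 had r = -0.88 (rho = -0.69, exact p = 0.036 and 0.104, adjusted p = 0.34 and 0.72). This r came to -0.19 without the 2 arrays farthest in Clock and to -0.54 with median centring of the arrays in place of quantile normalization. With slide means removed it was -0.91, and with the processed signal -0.81. It was -0.60 without BTBR replicates 1 and 2. Per3 and Cry1 had r = -0.77 (rho = -0.76, exact p = 0.019 and 0.045, adjusted p = 0.34 and 0.59). Their r was -0.56 without the 2 arrays farthest in Per3 and -0.58 without BTBR replicates 1 and 2. It was -0.57 with slide means removed, -0.74 with median centring and -0.61 with the processed signal. Per3 and Dbp, the factor that binds the D-box, had r = -0.33 (rho = -0.60, exact p = 0.55 and 0.17, adjusted p = 0.76 and 0.72), and 0.73 with slide means removed.

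**Figure D5:**
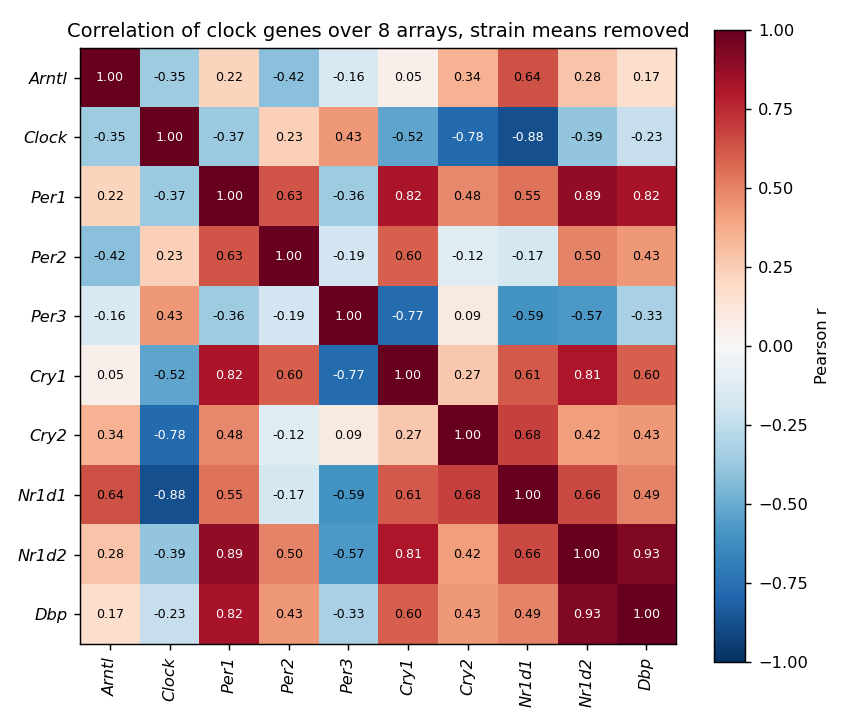
Pearson r between the brightest probes of the 10 clock genes (both axes) over 8 arrays with strain means removed, from blue at -1 to red at 1. The pairs of Nr1d2, Dbp and Per1 lie at 0.82 to 0.93, Cry1 reaches 0.82 with Per1 and 0.81 with Nr1d2, and Clock with Nr1d1 is the lowest of the 45 pairs at -0.88.

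The genes whose pattern over the arrays was most like that of Dbp, among 13924 gene names with strain means removed, were Xdh (r = 0.98), Sumo3 (0.98), Gucd1 (0.97), Fam229b (0.97) and Aktip (0.97). The most opposite were Lix1l (-0.99), Tmem177 (-0.99), Slc14a1 (-0.98), Kcne3 (-0.97) and Dagla (-0.97). These values are descriptions of 8 arrays and rank the extremes of many genes. Among 70 tested genes of the related lists described next, 46 had a positive r with Dbp, 9 had an unadjusted exact p under 0.05 and 0 were called after adjustment. These shares were 65.7% and 12.9%, beside 48.3% and 10.3% of all 18398 tested gene names other than Dbp, of which 0 were called, so that the share with an unadjusted p under 0.05 was near that of the array. The highest were Tsc22d3, a glucocorticoid-induced leucine zipper gene (r = 0.95, rho = 0.95, exact p = 0.0017 for both, the smallest possible, adjusted p = 0.061 and 0.12), and Klf9, a glucocorticoid-induced and clock-controlled factor (r = 0.94, rho = 0.90, exact p = 0.0017 and 0.0035, adjusted p = 0.061 and 0.12). Both kept high values without the 2 arrays farthest in Dbp (0.82 and 0.90) and without BTBR replicates 1 and 2 (0.91 and 0.98). With slide means removed, where r rests only on the 2 arrays of each strain and slide, they were at 0.95 and 0.93. Jun, an immediate early gene, had r = -0.85 (rho = -0.90, exact p = 0.017 and 0.016, adjusted p = 0.24 and 0.36). Its r was -0.65 without the 2 arrays farthest in Dbp, -0.83 with slide means removed and -0.73 without BTBR replicates 1 and 2.

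The wider clock was followed in lists of genes with known links to it, each gene at its brightest tested probe. The counts that follow come from the fit without slide. More output genes and immediate early genes were called with slide as a block, as given in the last section. A list of 12 other clock transcription factors also counted Timeless, which is not a transcription factor. Of the 12 genes, 11 were tested, and 1 fell while 0 rose (9.09% called, beside 7.82% of all gene names). It was Arntl2, a paralog of Arntl, at 8.26 to 8.34 in B6 and 7.97 to 8.11 in BTBR (difference -0.25, SE 0.06, adjusted p = 0.038 in limma). Its second probe differed by -0.05 (adjusted p = 0.82), and without BTBR replicates 1 and 2 the called probe was at -0.19 with an adjusted p of 0.20. In Timeless the brightest probe was not called (0.43, adjusted p = 0.12), while a dimmer one was higher in BTBR by 0.30 (adjusted p = 0.037 in limma), and by 0.21 without BTBR replicates 1 and 2, where it was not called (adjusted p = 0.19). Rora and Rorb, which activate Arntl through the ROR element, differed by 0.64 and 0.39 (adjusted p = 0.34 and 0.50). Rora was at 13.44 and 12.29 in BTBR replicates 1 and 2 and at 11.56 to 11.98 in the other arrays, the pattern of the thalamic markers, to which both genes also belong. The relatives of DBP were not called, with Tef at 0.12 (adjusted p = 0.30) and Hlf at 0.26 (adjusted p = 0.57), nor was Nfil3, the repressor of D-box elements, at 0.41 (adjusted p = 0.12). The median difference of the list was 0.21, beside 0.01 for all gene names.

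A list of 18 genes that act on clock proteins held kinases, phosphatases and ubiquitin ligases, and also Usp2, Sirt1 and Nono, which are none of these. All were tested, 2 fell and 0 rose (11.1% called, beside 7.82% of all gene names), with a median difference of -0.04. Ppp1cb, a catalytic subunit of protein phosphatase 1, fell by 0.44 (SE 0.10, adjusted p = 0.025 in limma) and Ppp5c, protein phosphatase 5, fell by 0.40 (SE 0.10, adjusted p = 0.036). Without BTBR replicates 1 and 2 they were at -0.31 (adjusted p = 0.11) and -0.30 (adjusted p = 0.057), and neither was called. Csnk1e and Csnk1d, the casein kinases that phosphorylate the period proteins, differed by 0.22 (adjusted p = 0.10) and -0.09 (adjusted p = 0.63) at their brightest probes. Of the 4 Csnk1d probes, 1 dimmer probe, A_52_P11576, was lower in BTBR by -0.59 (adjusted p = 0.0018 in limma, and -0.55 without BTBR replicates 1 and 2) and the other 3 were not called.

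Of 17 clock-controlled output genes, 16 were tested, 2 fell and 0 rose (12.5% called, beside 7.82% of all gene names), with a median difference of 0.03. Leo1, a subunit of the PAF1 complex of transcription elongation, was at 9.00, 9.09, 8.83 and 8.96 in B6 and at 7.53, 7.58, 7.70 and 7.62 in BTBR. It was well above background in all 4 B6 arrays and in 0 of the 4 BTBR arrays, so that it entered the test through B6 alone, where it is high, and its level in BTBR is only a bound. Among the 14 output genes that were well above background on all 8 arrays, 1 was called (7.14%, beside 7.49% of all gene names under the same filter), and it was Rbm3. Leo1 was at least 2.36-fold lower in BTBR. For this bound, each BTBR array took the probe itself or its dimmest probe well above background, whichever was higher. Their mean was set against the mean of B6, and no p is given for the bound. Rbm3, a cold-inducible RNA-binding protein, fell by 0.55 at its brighter probe (adjusted p = 0.0060 in limma), while its second probe differed by 0.07 (adjusted p = 0.82). Without BTBR replicates 1 and 2 Rbm3 was at -0.56 (adjusted p = 0.035), but it was not called when B6 replicate 2 was left out as well (-0.54, adjusted p = 0.087) or within slide 2 (-0.43, adjusted p = 0.084).

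Many clock genes also answer to neuronal activity and to glucocorticoids, and both were followed. Limma called 0 of the 15 immediate early genes, beside 7.82% of all gene names. An unadjusted p under 0.05 was found for 1 of them, beside 18.5% of all probes, and the rank product called 1, beside 3.94% of all probes. In the other lists an unadjusted p under 0.05 was found for 3 of 11 genes in the transcription factor list and 4 of 18 in the kinase, phosphatase and ligase list. It was found for 7 of 16 output genes and 6 of 13 glucocorticoid-induced genes. The rank product called 0, 0, 1 and 2 genes of these lists, in the same order. The median difference of the immediate early genes was 0.16. The one with the unadjusted p was Jun, at 11.97 to 12.62 in B6 and 11.17 to 12.27 in BTBR (difference -0.75, adjusted p = 0.10 in limma, and -0.41 without BTBR replicates 1 and 2). The mean log2 level of the immediate early genes ranged from 11.48 to 12.37 in B6 and from 11.46 to 12.58 in BTBR, so that it varied within both strains. Of 14 glucocorticoid-induced genes, 13 were tested, 2 fell and 0 rose (15.4% called, beside 7.82% of all gene names), with a median difference of 0.07. The genes that fell were the metallothioneins Mt2, by 0.55 (SE 0.09, adjusted p = 0.0069 in limma), and Mt1, by 0.28 (SE 0.06, adjusted p = 0.025). The second Mt1 probe differed by 0.14 (adjusted p = 0.79). Without BTBR replicates 1 and 2 they were at -0.51 (adjusted p = 0.058) and -0.24 (adjusted p = 0.15). A dimmer probe of Map3k6 was higher in BTBR by 0.89 (adjusted p = 0.0087 in limma), and by 0.65 without BTBR replicates 1 and 2 (adjusted p = 0.0496), while the brightest was at -0.52 (adjusted p = 0.27).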

How the data were processed

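The intensity values were used as deposited by the authors, who scanned Cy3 spots with the Feature Extraction software of Agilent (version 10.7.3.1 per the file headers) and gave mean intensity, median local background, a processed signal and flags. The log2 values of the deposited matrix, which the authors made with Agi4x44PreProcess, background subtraction and quantile normalization, were used as an alternative. Probe coordinates are those of mm9 from the array files, and promoter windows are those of RefSeq GRCm38.p6. Neither set was converted to the other build.

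The strain labels gave 2 groups of 4 arrays. From each mean intensity the local background was taken off, with a minimum of 0.5, and log2 of the result plus 50 was quantile normalized. Replicate spots were summarized by their median. Tests were run on the 27982 non-control probes that were free of outlier flags and well above background on 75% or more of either strain's arrays. Limma 3.58.1 in R 4.3.3 fitted strain, slide and their interaction where named, with Benjamini-Hochberg adjustment. This main test replaced the rank product of the study, which does not set a difference against the spread between mice and was run with 100 permutations as an alternative. Single probes were compared with two-sided exact permutation tests. The computation was tested on simulated data. The number of arrays limits the precision. The limma p-values set a difference against the spread between the 4 mice of a strain, moderated over all tested probes.

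The clock genes and the related lists were chosen with earlier results of these data known. All 10 clock genes were named with every tested probe; from each other list the called genes, at most 3 per direction; and the 5 genes most and least like Dbp. Other genes, Slc45a1, Vamp3, Timeless, Rora, Rorb, Tef, Hlf, Nfil3, Csnk1d, Csnk1e, Tsc22d3, Klf9, Map3k6 and Jun among them, were chosen for naming with their values in view. The alternatives were the deposited matrix, the processed signal, normexp, centring on medians, other filters on dim or outlier-flagged probes, a median per gene, limma with trend and robust options, the rank product, slide or replicate number as a block and each array left out in turn. The settings that leave out arrays together and those within a slide were chosen after seeing the data. Same-numbered arrays of the strains did not deviate together in every pair (r = -0.14, 0.51, -0.10 and 0.39).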

Additional observations from a re-analysis of the deposited data

Results flagged for a closer look

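Among 34 sets of 4 arrays (17 clock probes in 2 strains), a single array lay far from the other 3 in 2, where chance gives about 1 in 20. For the dimmer Cry2 probe A_51_P135542, B6 replicate 1 was highest at 9.16 with the nearest array at 8.81, a gap of 0.913 of the whole range. For the dimmest Nr1d1 probe A_52_P130961, BTBR replicate 1 was lowest at 8.68 with the nearest array at 8.85, a gap of 0.890 of the range. Neither probe was called between the strains.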

How the results depend on the processing

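The number of called clock probes was 1 in each setting in which probes were counted, and Per3 was called in all 24 alternatives, with adjusted p-values or pfp from 0.00022 to 0.013. Leaving out 1 array at a time gave Per3 differences of 0.81 to 0.97. No other clock probe was called in any alternative, and 0 correlated pairs were called in those run. Replicate numbers paired the arrays only in part. The arrays of replicates 2 and 4 were each other's closest across the strains, and those of replicates 1 and 3 were not. With the replicate block Per3 stayed at 0.92 (adjusted p = 0.0032).

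Small differences of uncalled probes changed sign, and the cause was not tested. Without BTBR replicates 1 and 2 these were Nr1d1 A_52_P130952 (-0.079), Nr1d2 (-0.016), Dbp (-0.161), Clock A_52_P334677 (-0.026) and Cry1 (-0.070), and without B6 replicate 2 as well Nr1d1 A_52_P130952 (-0.047), Dbp (-0.074), Clock A_52_P334677 (-0.021) and Cry1 (-0.025). Within slide 2 they were Nr1d1 A_52_P130952 (-0.099) and A_52_P130961 (-0.104), Per2 (-0.089), Clock A_52_P334677 (-0.056), Cry2 A_51_P135542 (0.080) and Cry1 (-0.069). A median per gene gave Clock (-0.014), Cry2 (-0.014) and Nr1d1 (0.038). Median centring gave Cry2 A_52_P248378 (-0.018) and Nr1d1 A_52_P130961 (-0.0097), and the deposited matrix gave the latter at -0.0016. With 1 array left out, Nr1d1 A_52_P130961 ranged from -0.077 to 0.064, Nr1d1 A_52_P130952 from -0.010 to 0.104, Nr1d1 A_51_P223776 from -0.246 to 0.0083, Dbp from -0.025 to 0.218, Cry2 A_52_P248378 from -0.010 to 0.081 and Cry2 A_51_P135542 from -0.110 to 0.015.

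The counts of called genes in the related lists moved. Other clock transcription factors went from 1 to 0 with the deposited matrix, median centring, a median per gene, the rank product, the replicate block, within slide 2 and in both settings without BTBR replicates 1 and 2, and from 0 to 2 with 1 array left out. Kinases, phosphatases and ligases went from 2 to 0 with the processed signal, the rank product, the replicate block, within slide 2 and in both settings without BTBR replicates 1 and 2, to 1 within slide 1, and from 0 to 2 with 1 array left out. Output genes went from 2 to 1 with the rank product, with probes above background on all arrays and within slide 2, to 4 with slide as a block and to 6 within slide 1. Immediate early genes went from 0 to 1 with the rank product, the replicate block, slide as a block and with 1 array left out. Glucocorticoid-induced genes went from 2 to 1 with a median per gene, the processed signal and without BTBR replicates 1 and 2 and B6 replicate 2, to 0 within slide 2 and without BTBR replicates 1 and 2, and ranged from 1 to 3 with 1 array left out. No scaling moved the median of all probes by more than 0.03. The Cry1 probe that was not well above background has no value here, and no fold is given for it.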
